A study of Mus musculus with 30 samples.

Results

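The genes of oxidative phosphorylation were followed in mouse secondary induced pluripotent stem cells (iPSCs) as they left pluripotency and were challenged to regain it. Members were chosen by symbol alone, as the genes whose names begin with Nduf (series a, b, c, s and v), Uqcr, Cox4 to Cox8 or Atp5, together with Sdha, Sdhb, Sdhc and Sdhd. Symbols that contain -ps were left out. The rule took 84 of the 22477 genes in the table and used no expression value. They comprise 73 canonical subunits of the 5 complexes (35 of complex I, 4 of complex II, 8 of complex III, 11 of complex IV and 15 of complex V), 8 tissue isoforms, and 3 genes that share the name pattern without being subunits (Atp5s, Atp5sl and Cox7a2l). Ndufa4, long listed with complex I, was counted with complex IV.

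The cells were of 1 line. They carried transgenes for the reprogramming factors OSKM (Oct4, Sox2, Klf4 and cMyc) that dox switches on, GFP on 1 Nanog allele and a constitutive nuclear red fluorescent protein, and all conditions shared this background. They had been kept on embryonic fibroblast feeders in serum/LIF and then held in 2i/LIF, which is LIF with inhibitors of MEK and GSK3. Polyadenylated RNA was sequenced after 0, 24, 36, 48, 60, 72 and 96 h of 2i/LIF withdrawal in N2B27 medium. Cells withdrawn for 0, 24, 48 or 96 h were also re-seeded for 48 h in serum/LIF, either without dox (–dox) or with dox to induce OSKM (+dox). In the colony assay of the study, cells were plated on gelatin before withdrawal and re-seeded on fibroblast feeders. Whether the re-seeded cells used for RNA had feeders is not given in the sources used here. These 15 conditions had 2 replicates each, but the table holds 1 combined value per gene and condition, as FPKM, which is sequenced fragments scaled to transcript length and library size. No replicate spread, error or test can therefore be given for any value below, all differences are descriptions, and the read depth behind a value is unknown.

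Oxidative phosphorylation makes most of the ATP of respiring cells. Complexes I and II pass electrons from NADH and succinate to ubiquinone, complex III hands them to cytochrome c, complex IV reduces oxygen, and complex V, the ATP synthase, uses the resulting proton gradient. Pluripotent stem cells are known for high glycolysis beside active mitochondria, and their balance is known to shift as cells move from naive to primed pluripotency. Most subunits are encoded in the nucleus, as are all 84 genes described here. The subunits encoded in mitochondrial DNA were not analysed here.

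The labelled states were visible in their markers. The 8 naive pluripotency genes summed to 1062, 403 and 36.2 FPKM after 0, 24 and 96 h of withdrawal. The sum was 829.5 FPKM in cells re-seeded without dox at 0 h. The 0 h condition also stood apart by fibroblast genes, of which the 10 listed summed to 867 FPKM, led by Col1a1 at 229 FPKM, against 79.3 and 22.8 FPKM after 24 and 72 h. The re-seeded cells of 0 and 96 h –dox had sums of 8.70 and 153 FPKM. The part of fibroblast RNA in the values at 0 h was not tested, and for that reason 24 h is given beside 0 h as a second reference for withdrawal. The re-seeded conditions from 0 and 24 h had between 2756 and 3980 genes listed at 0, and the other 11 conditions between 4112 and 5090.

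The canonical subunits were abundant transcripts. Their means over the 15 conditions ran from 44.7 FPKM for Ndufa11, a membrane-arm subunit of complex I, to 3119 FPKM for Atp5b, the catalytic beta subunit of ATP synthase. The median of these means was 268.5 FPKM, against 11.9 FPKM for the 12619 genes with a mean of at least 1 FPKM, and Atp5b ranked 29th of all genes. All 73 canonical subunits reached 1 FPKM in all conditions. Together the 84 genes made up between 3.31% (24 h –dox) and 4.21% (0 h) of the summed FPKM. Of the 84, 81 had a mean of at least 1 FPKM and entered the counts. The other 3 were the isoforms Cox6a2, Cox8b and Cox8c, with highest values of 3.13 and 1.51 FPKM at 0 h +dox for the first pair and 1.86 FPKM at 72 h for Cox8c.

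The most abundant gene of each complex, on the length-corrected FPKM scale, was Ndufa7 in complex I (mean 664 FPKM), Sdhb in complex II (141 FPKM), Uqcrq in complex III (744 FPKM), Cox4i1 in complex IV (1140.4 FPKM) and Atp5b in complex V. Complex II, the succinate dehydrogenase shared with the tricarboxylic acid (TCA) cycle, was the least abundant. Its 4 genes summed to 422 FPKM at 0 h, against 3589 FPKM for complex III.

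During withdrawal, subunit levels dipped at 24 h, returned towards the starting level at 36 and 48 h, were lowest at 72 h and partly higher again at 96 h. Summed over the 73 canonical subunits, the levels of the 7 times from 0 to 96 h were 32423, 26529.5, 29929, 29613, 25656, 19839 and 22659 FPKM. The lowest of the 7 times was 72 h for 52 of the 73, which is 71.2% against 13.2% of all genes, and the highest was 0 h for 39, or 53.4% against 22.8%. The highest was 36 h for 16 and 48 h for 12, or 21.9% and 16.4% against 12.2% and 7.57%. After rescaling each condition to 1 sum, 27 had their lowest value at 72 h, or 37.0% against 4.52% of all genes, and 28 their highest at 0 h, or 38.4% against 14.9%. At 36 and 48 h the highest values were then 7 and 5, or 9.59% and 6.85% against 4.91% and 3.71%. From 60 to 72 h, 70 of 73 were lower, with a median log2 ratio of -0.36 against 0.02 for all genes. From 72 to 96 h, 59 of 73 were higher, with a median log2 ratio of 0.19 against 0.01. The heatmap of log2 ratios to 0 h shows the 72 h column as the bluest of the time course across complexes I, III, IV and V.

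**Figure D1:**
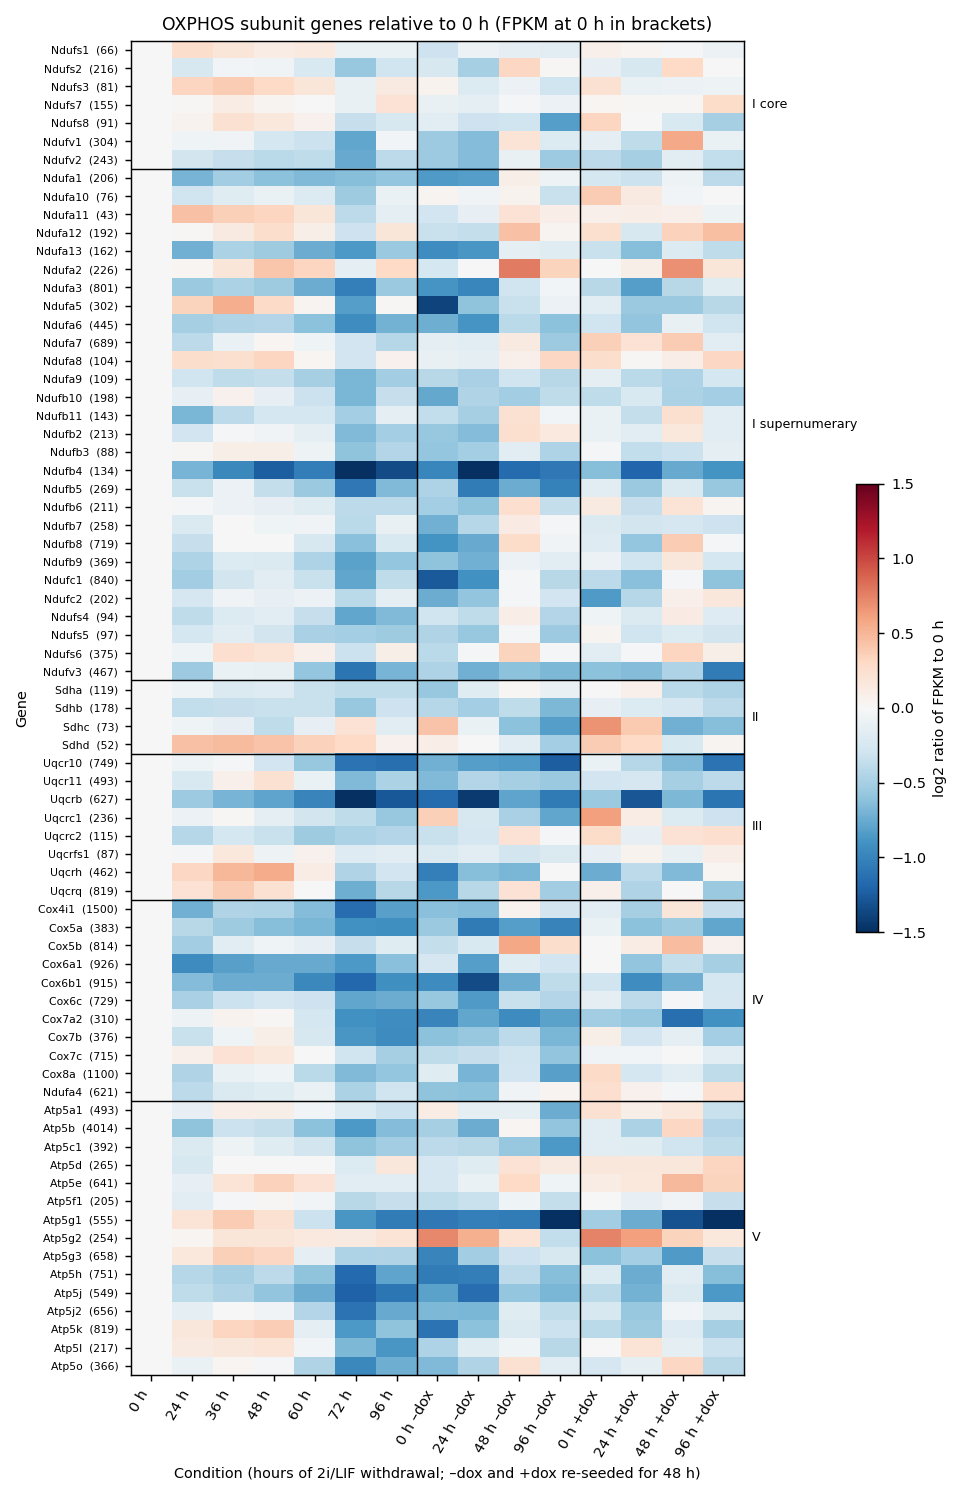
Each row is 1 of the 73 canonical subunit genes, grouped by complex, with its FPKM at 0 h in brackets, and each column is 1 of the 15 conditions. Colour gives the log2 ratio of FPKM to 0 h and is capped at 1.5 in either direction. The 72 h column is blue in 70 of 73 genes, the 0 h and 24 h –dox columns are bluer than the +dox columns of the same times, and Atp5g2 and Sdhc run against most other rows.

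Most of these differences were smaller than 2-fold. At 24 h the median log2 ratio to 0 h of the 81 members was -0.24 and 2 were at least 2-fold lower (Cox7a1 and Ndufa4l2), where 11.4% of all genes were. At 36 h the median was -0.05, with 1 member lower (Cox7a1) against 13.5% of all genes and 1 higher (Cox7b2) against 10.2%. At 48 h the median was -0.07 and 3 were lower (Cox7a1, Ndufa4l2 and Ndufb4) against 13.8%. At 60 h it was -0.23, with 3 lower (Cox6b2, Cox7a1 and Ndufb4) against 12.9% and Atp5s higher against 12.0%. Up to 60 h, then, the share of members past 2-fold lay below the share of all genes in each of these counts. After rescaling to 1 sum, Cox7a1 alone was lower at 60 h, 1.23% of the members against 10.3% of all genes.

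At 72 h the median was -0.60, against -0.02 for all genes. The members at least 2-fold lower numbered 13, which is 16.0% where the background was 12.9%. They were the complex V genes Atp5h, Atp5j and Atp5j2, the complex IV genes Cox4i1 and Cox6b1, the complex I genes Ndufa3, Ndufb4, Ndufb5 and Ndufv3, the complex III genes Uqcr10 and Uqcrb, and the isoforms Cox6b2 and Cox7a1. The single member 2-fold higher was Atp5s (background 13.9%). At a 1.5-fold limit, 41 members were lower, which is 50.6% against 22.7% of all genes. At 96 h the median was -0.43, with 8 members 2-fold lower against 13.7% of all genes, Atp5s and Cox4i2 higher against 15.5%, and 25 members 1.5-fold lower, which is 30.9% against 22.9%. Against 24 h instead of 0 h, a reference added after the values were seen, the median at 72 h was -0.37, 6 members were 2-fold lower, where the background was 11.4%, and 22 were 1.5-fold lower, which is 27.2% against 23.1% of all genes. As deposited, the share 1.5-fold lower at 72 h was thus above the background with either reference and nearer to it against 24 h. The counts against 24 h are given on the deposited scale only. At that time 65 of 73 canonical subunits were below their 24 h value. At 96 h against 24 h, 17 of 81 members were 1.5-fold lower, a share below the 25.6% of all genes. On that scale the excess at 96 h was therefore seen against 0 h only, although 53 of 73 canonical subunits were below their 24 h value.

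The scale matters to these levels. All genes summed to 784702 FPKM at 0 h and the 84 members to 33032 FPKM of that, while at 72 h the sums were 603278 and 20178 FPKM. Rescaling each condition to the same sum moved the median of all genes at 72 h from -0.02 to 0.36, and the members' median became -0.22 with 54 of 73 canonical subunits lower in place of 70. The members 2-fold lower at 72 h were then 3, or 3.7% against 8.57% of all genes, and 13 were 1.5-fold lower, or 16.0% against 13.5%. At 96 h the members 1.5-fold lower were 13 as well, or 16.0%, and the share of all genes was also 16.0%. The median of the members minus that of all genes was -0.58 at 72 h and -0.42 at 96 h on the log2 scale, differences that rescaling a condition leaves as they are.

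Cytosolic ribosomal protein genes, another set of short and abundant transcripts, ran close to the subunits. After 24, 72 and 96 h their median log2 ratios to 0 h were -0.36, -0.67 and -0.57. Genes with a longest coding transcript under 800 bases, members and cytosolic ribosomal proteins left out, had a median of -0.23 at 72 h, and with conditions rescaled to 1 sum 0.14, where all genes had 0.36. Of the canonical subunits 32 were under 800 bases. The median length of all 73 was 875 bases, against 3057.5 for all genes. Among members of at least 800 bases the median at 72 h was -0.55, and among shorter members it was -0.66. Whether transcript length or the sizing of fragments plays a part was not tested.

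The complexes had different medians. At 72 h the median log2 ratio to 0 h was -0.86 for complex IV, -0.68 for complex V, -0.61 for complex I, -0.57 for complex III and -0.09 for complex II. Within complex I the 7 core subunits, which carry the cofactors of electron transfer, had a median of -0.34, and the 28 supernumerary subunits, which surround them, -0.63. With conditions rescaled to 1 sum the medians were 0.29 for complex II and 0.036 for the complex I core, and those of complexes III, IV and V and of the supernumerary subunits stayed below 0, where that of all genes was 0.36. Complex IV was also the lowest complex at 24 h, where its sum stood at 5981 FPKM against 8389 FPKM at 0 h. Complex III summed to 3589, 3795 and 2052 FPKM after 0, 36 and 72 h, so that its sum was higher at 36 h than at the start.

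**Figure D2:**
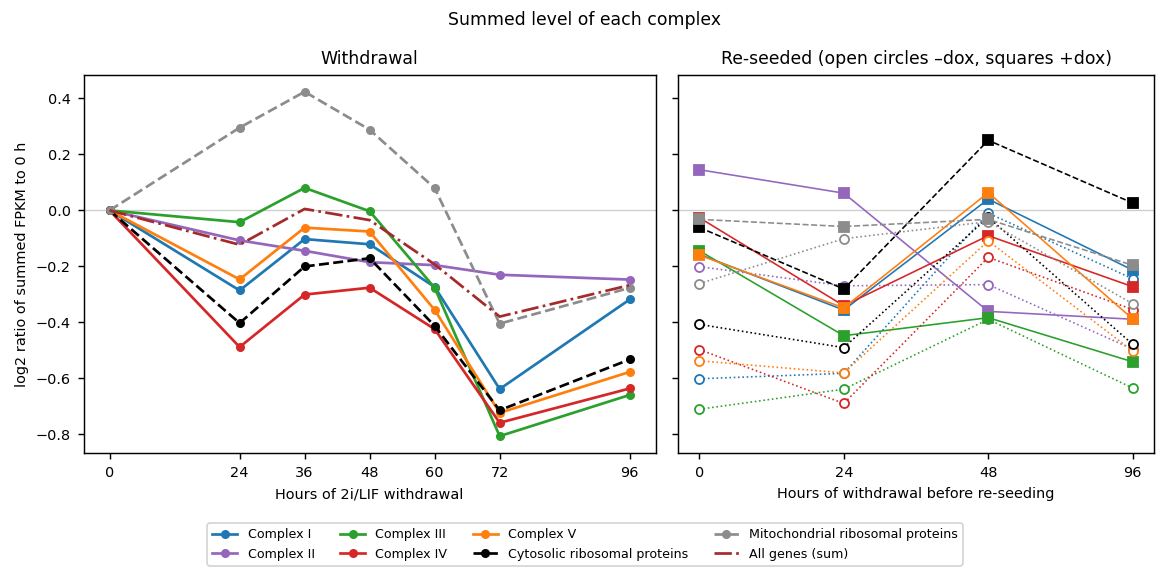
Summed FPKM of the canonical subunits of each complex, of 77 cytosolic and of 77 mitochondrial ribosomal protein genes, as log2 ratio to 0 h, during withdrawal (left, with the sum of all genes) and after re-seeding (right, open circles –dox, squares +dox). Complexes I, III, IV and V reach between -0.81 and -0.64 at 72 h while complex II stays at -0.23, and +dox lies above –dox for all 5 complexes at 0 and 24 h.

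In complex I, Ndufb4, a supernumerary subunit of the membrane arm, had the lowest ratio of 96 h to 0 h. It measured 134, 82.5, 68.5, 56.7, 65.0, 46.8 and 52.8 FPKM from 0 to 96 h. Its level at 0 h was the highest of all 15 conditions, the other 6 times lay below it, and the log2 ratio at 96 h was -1.34. Ndufa2, another supernumerary subunit, had the highest ratio in the complex at 0.30, from 226 to 278 FPKM. Ndufs7, a core subunit with an iron-sulfur cluster, varied least of all canonical subunits, with a highest value 1.32 times its lowest over the 15 conditions.

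In complex II, Sdha, the flavoprotein that oxidises succinate, was lowest at 96 h relative to 0 h within its complex, with a log2 ratio of -0.38. Sdhd, a membrane anchor, had the highest ratio at 0.07. The other anchor, Sdhc, measured 73.4, 70.2, 67.2, 56.2, 67.3, 85.1 and 65.7 FPKM over withdrawal, so that its highest time was 72 h, when most subunits were at their lowest. Sdhb, the iron-sulfur subunit, measured 178 FPKM before withdrawal and 120.0 FPKM after 72 h.

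In complex III, Uqcrb, which takes part in binding ubiquinone, measured 627, 431, 387, 363, 316, 224 and 259.8 FPKM. It was highest at 0 h, with a log2 ratio of -1.49 at 72 h and -1.27 at 96 h. Uqcrfs1, the Rieske iron-sulfur protein, differed least, going from 87.3 to 77.7 FPKM between 0 and 96 h, a log2 ratio of -0.17. Uqcrq, the most abundant gene of the complex, had 819, 1065 and 492 FPKM after 0, 36 and 72 h. Cyc1, the cytochrome of complex III that the name rule leaves out, had 239 FPKM before withdrawal and 211 FPKM after 72 h.

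In complex IV, Cox4i1, the common form of subunit 4, measured 1500.2, 910.5, 1094, 1088, 959, 678 and 855 FPKM, with its lowest value at 72 h. All 11 canonical genes of the complex were below their 0 h value at 72 and 96 h. At 96 h the log2 ratios ran from -0.95 for Cox7b to -0.18 for Cox5b, both nuclear-encoded structural subunits. Cox8a, the common form of subunit 8, had 1100.0, 808, 1027, 1051, 833, 695 and 737 FPKM, and Cox6a1, the common form of subunit 6a, had 926, 483, 528, 547, 550.0, 510.5 and 602 FPKM. Both thus were highest at 0 h, and Cox6a1 was lowest at 24 h and Cox8a at 72 h.

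In complex V, Atp5b measured 4014, 2643, 3198, 3142, 2614, 2213 and 2560.2 FPKM. Atp5j, coupling factor 6 of the stalk, had the lowest ratio of the complex at 96 h, -1.08, going from 549 to 259 FPKM. Atp5g2, 1 of 3 genes for the c subunit, had the highest at 0.21.

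As deposited, most subunits ran with 1 profile over the conditions. The correlation of each canonical subunit with the median profile of the others, over 15 conditions that share libraries and scale, had a median r of 0.66, and 53 of 73 had an r of at least 0.5. That is 72.6%, where 5.79% of the 12392 genes above 0 in all conditions and 59 of 77 cytosolic ribosomal protein genes, or 76.6%, reached an r of 0.5 with the median profile of the subunits. After rescaling each condition to 1 sum, the median r of the subunits was 0.30 and 18 of 73 reached 0.5, or 24.7% against 1.71% of the same genes and 1.3% of the ribosomal ones. These are descriptions without a p. The median profile was highest at 0 h and next highest at 0 h +dox, and lowest at 72 h and 0 h –dox. Atp5h, subunit d of the stalk, followed it most closely as deposited (r = 0.95), with 751, 560.5, 531, 572, 493, 334 and 433 FPKM over withdrawal, 362, 366, 571 and 483 FPKM at 0, 24, 48 and 96 h –dox and 651, 449.6, 674 and 482 FPKM at the same times +dox. The next closest were Atp5j2 (r = 0.92), Atp5f1 (r = 0.89) and Atp5j (r = 0.89), all of complex V. The 2 canonical subunits with a negative r were Sdhc (-0.20) and Atp5g2 (-0.14).

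Re-seeding into serum/LIF without dox was next compared with the cells of the same time before re-seeding. At 0 h, before any withdrawal, 66 of 73 canonical subunits were lower after re-seeding. Between these conditions the fibroblast genes went from 867 to 8.70 FPKM, and their part in the difference was not tested. The median of the 81 members was -0.46 against 0.01 for all genes, and -0.39 among members of at least 800 bases. At least 2-fold lower were 8 members, or 9.88% against 7.62% of all genes: Atp5g1, Atp5h, Atp5k, Cox7a1, Ndufa5, Ndufc1, Uqcrb and Uqcrh. At 1.5-fold there were 31, or 38.3% against 17.1%. The 3 members at least 2-fold higher, where the background was 10.4%, were Atp5s, Cox4i2 and Ndufa4l2. With conditions rescaled to 1 sum, 60 of 73 canonical subunits were lower and the median of the members was -0.23, while that of all genes was 0.25. The members 2-fold lower were then 2, or 2.47% against 5.21% of all genes, and those 1.5-fold lower 17, or 21% against 10.8%.

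The lowest ratio belonged to Ndufa5, a supernumerary subunit of the complex I matrix arm. It had 302 FPKM at 0 h before re-seeding and 115 and 269 FPKM after re-seeding –dox and +dox, with a log2 ratio of -1.39 for –dox to 0 h. Its value at 0 h –dox was the lowest of the 15 conditions. Ndufc1, another supernumerary subunit, had 840.5, 349.7 and 639.5 FPKM in the same order, and Uqcrb had 627, 281 and 427 FPKM. All 3 were thus lower after re-seeding without dox and higher with dox than without it, but below 0 h in both. The comparison of re-seeding and that of dox share the values at 0 h –dox, so a low value there lowers the first ratio and raises the second.

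At 24 h the median after re-seeding without dox was -0.33 against -0.04 for all genes. Atp5g1 and Cox7b2 were at least 2-fold lower, where 8.56% of all genes were, and Atp5s, Cox4i2 and Ndufa4l2 were higher, where 13.9% were. At 48 and 96 h the medians were -0.0027 and 0.031. The members 2-fold lower at 48 h were Atp5g1, Cox7b2, Ndufa4l2 and Uqcrh (background 10.1%), and at 96 h Ndufa4l2 (background 10.1%). Cox7a1 was 2-fold higher at 96 h (background 9.35%). The 2 comparisons with lower medians were therefore those from 0 and 24 h, which were also the conditions with fewer genes listed at 0. The part of that difference between libraries was not tested.

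Among re-seeded cells without dox, those withdrawn for 48 h had higher subunit levels than those not withdrawn on the deposited scale, with 58 of 73 canonical subunits higher. For cells of 24, 48 and 96 h the median log2 ratios to 0 h –dox were -0.03, 0.31 and 0.12, and those of all genes -0.01, 0.00 and -0.04. With conditions rescaled to 1 sum the median at 48 h was 0.086 with 45 of 73 canonical subunits higher, while that of all genes was -0.22. Complex IV went from 0.20 to -0.024 and the complex I core from 0.17 to -0.060, which left both above all genes by as much as before. The conditions also differed in genes listed at 0, with 3282 at 0 h –dox and 4734 at 48 h –dox, and the part of this in the ratios was not tested. At 48 h, 5 members were at least 2-fold higher (Ndufa2, Ndufa5, Ndufb8, Ndufc1 and Uqcrq, background 14.2%) and 5 were lower (Cox4i2, Cox6b2, Cox7b2, Ndufa4l2 and Sdhc, background 15.0%). After the rescaling Ndufc1 alone was higher, 1.23% of the members against 10.8% of all genes, and 6 were lower, with Uqcrc1 added, 7.41% against 19.6%. At 24 h, 5 were lower (Cox4i2, Cox6b2, Cox7a1, Cox7b2 and Ndufa4l2, background 9.3%). At 96 h, Ndufa5 and Uqcrh were higher (background 18.7%) and 7 members were lower (background 20.1%), among them Sdhc and Uqcrc1. After the rescaling Ndufa5 alone was higher at 96 h, 1.23% of the members against 18.5% of all genes.

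Inducing OSKM at re-seeding was associated with higher subunit levels at the earlier times. With dox, 71 of 73 canonical subunits were higher than without it at 0 h and 72 of 73 at 24 h, where 54.5% and 52.3% of all genes were higher. At 48 h the number was 44 and at 96 h 45, against 48.5% and 50.1%. With conditions rescaled to 1 sum the numbers were 64, 63, 28 and 30, while the median log2 ratio of all genes became -0.18, -0.089, -0.11 and -0.18. The rescaling shifts every gene alike, so the median of the members minus that of all genes was 0.34, 0.22, 0.042 and 0.12 on either scale. The median log2 ratio of +dox to –dox over the 81 members was 0.39, 0.24, 0.03 and 0.12 at 0, 24, 48 and 96 h, and that of all genes 0.05, 0.02, -0.01 and 0.00. As deposited, 31 of the canonical subunits, or 42.5%, were higher with dox at all 4 times, as were 15.7% of all genes, and 0 were lower at all 4. After the rescaling no more than 28 could be higher at all 4 times, the number higher at 48 h.

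**Figure D3:**
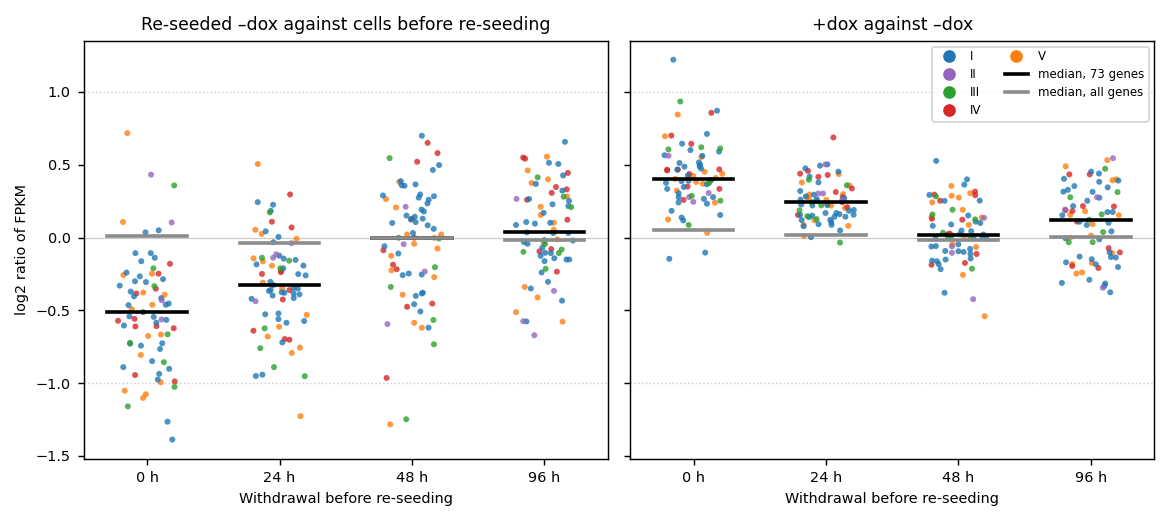
Each point is 1 of the 73 canonical subunits, coloured by complex, and the vertical axis is the log2 ratio of FPKM of re-seeded –dox cells to cells before re-seeding (left) or of +dox to –dox cells (right). Black bars are medians of the 73 and grey bars medians of all 12619 genes, and dotted lines mark 2-fold. Most points lie below 0 on the left and above 0 on the right at 0 and 24 h, and they spread around 0 at 48 and 96 h.

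The differences with dox were again small. At least 2-fold higher at 0 h was Ndufa5 alone (log2 ratio 1.22, background 2.72%), followed by Uqcrq at 0.93 and Ndufc1 at 0.87. Once rescaled to 1 sum, Ndufa5 had 0.99 and 0 members were 2-fold higher, against 1.65% of all genes. At 1.5-fold there were 15, or 18.5% against 10.3%, and after the rescaling 5, or 6.17% against 4.96%. At 24, 48 and 96 h the members 1.5-fold higher as deposited were 3, 3 and 2. These shares of 3.7%, 3.7% and 2.47% lay below the 8.09%, 12.4% and 14.1% of all genes. Cox4i2 and Ndufa4l2 were 2-fold lower at 0 h (background 4.48%). At 24 h Cox6b2 and Cox7b2 were higher (background 2.36%) and Ndufa4l2 lower (background 2.76%), and Ndufa4, a subunit of complex IV, followed at 0.69. At 48 h Cox4i2, Cox6b2 and Cox7b2 were higher (background 5.56%), while Atp5g3 at -0.54 and Sdha at -0.42 had 2 of the 3 lowest ratios. At 96 h Cox6b2 was higher (background 5.8%) and Cox4i2 and Cox7a1 were lower (background 7.69%). Sdhd had 0.55 and Ndufv3, a supernumerary subunit of complex I, -0.38 at that time. In these counts the share of the 81 members past 2-fold lay below the background, except for the 2 higher at 24 h, which are 2.47%.

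Short transcripts outside the set also had higher values with dox. The median log2 ratio of other genes under 800 bases, without cytosolic ribosomal proteins, was 0.24 at 0 h and 0.17 at 24 h. After rescaling to 1 sum these were 0.015 and 0.063, where all genes had -0.18 and -0.089. Cytosolic ribosomal protein genes had median log2 ratios of +dox to –dox of 0.33, 0.20, 0.26 and 0.51 at 0, 24, 48 and 96 h, near those of the members at the first pair of times and above them at 48 and 96 h. Members of at least 800 bases had 0.36 and 0.23 on the deposited scale, and all genes of that length 0.05 and 0.02. The part of transcript length in the dox ratios was not tested.

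Among the tissue isoforms, Cox6b2, the testis form of a complex IV subunit, was at least 2-fold higher with dox at 24, 48 and 96 h. After rescaling to 1 sum its log2 ratio at 96 h was 0.94, under 2-fold, and it then passed at 24 and 48 h, as Cox7b2 did. It measured 233, 127, 134, 120.5, 102, 106 and 91.5 FPKM over withdrawal, 195, 75.7, 83.3 and 64.6 FPKM at 0, 24, 48 and 96 h –dox and 288, 178, 194 and 139.9 FPKM at the same times +dox. The values were highest in the 3 conditions at 0 h, and +dox lay above –dox at all 4 times. The log2 ratios of +dox to –dox were 0.56, 1.23, 1.22 and 1.11. Its partner Cox6b1, the ubiquitous form, had 475, 361, 547 and 705 FPKM –dox and 743, 481, 555 and 761 FPKM +dox. As a share of the summed FPKM of the pair, Cox6b2 made up 29.1%, 17.4%, 13.2% and 8.39% –dox and 27.9%, 27.0%, 25.9% and 15.5% +dox. The naive pluripotency genes summed to 829.5, 265, 93.5 and 43.9 FPKM –dox and to 684, 332, 250.2 and 57.6 FPKM +dox at these times. At 0 h they were thus lower with dox where Cox6b2 was higher. Their list includes Klf4, itself a factor of OSKM, and the part of transgene RNA in the +dox sums was not tested. The 7 germline genes, a list chosen because Cox6b2 and Cox7b2 are known from testis, summed to 88.6, 56.3, 27.1 and 7.54 FPKM –dox and to 62.2, 64.9, 53.7 and 3.81 FPKM +dox. Their sum was lower with dox at 0 and 96 h and higher at 24 and 48 h, where Cox6b2 was higher at all 4. Their part in the Cox6b2 values was not tested.

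Cox7b2, the testis form of subunit 7b, had a different course. It measured 5.41, 9.40, 15.8, 10.7, 10.4, 4.52 and 0.802 FPKM over withdrawal, highest at 36 h and lowest at 96 h. It had 7.90, 2.80, 0.585 and 0.169 FPKM at 0, 24, 48 and 96 h –dox and 4.25, 6.26, 1.90 and 0.147 FPKM +dox. The common form Cox7b had 195 FPKM at its lowest, at 96 h, and Cox7b2 was at most 4.22% of the pair, at 36 h.

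Cox7a1, the heart and skeletal muscle form of subunit 7a, was highest at 0 h. It measured 138, 41.5, 38.2, 27.4, 28.6, 20.6 and 25.4 FPKM over withdrawal, 62.9, 23.0, 46.5 and 54.9 FPKM at 0, 24, 48 and 96 h –dox and 62.8, 26.2, 38.0 and 17.1 FPKM +dox. The log2 ratio to 0 h was -1.73 at 24 h and -2.74 at 72 h, the lowest of the 81 members at 72 h. It made up 30.8% of its pair with Cox7a2 at 0 h and 7.99% at 48 h. The 10 fibroblast genes were also highest at 0 h (above) but at 8.70 FPKM at 0 h –dox, where Cox7a1 still had 62.9 FPKM. The 10 heart and skeletal muscle genes summed to 26.4 FPKM at 0 h, led by Tnni3 at 17.7 FPKM with Ckm and Actc1 listed at 0, and to 123 FPKM at 96 h, led by Acta1 at 100.5 FPKM. Their sum was therefore higher at 96 h, where Cox7a1 was lower. At 96 h –dox Cox7a1 was again above the cells before re-seeding, with a log2 ratio of 1.11, and +dox lay below –dox there at -1.69. The fibroblast genes had the same order, with 153 FPKM –dox and 29.6 FPKM +dox, and their part in the Cox7a1 values was not tested.

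**Figure D4:**
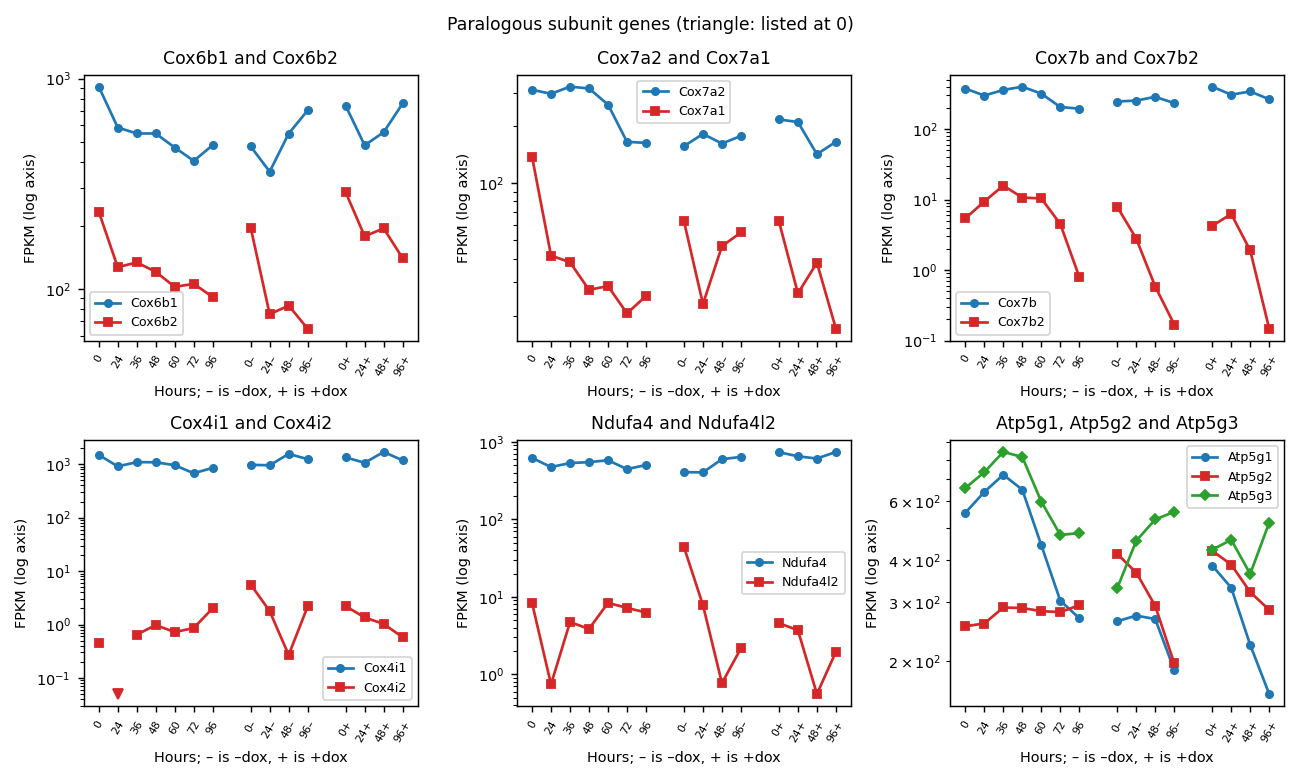
FPKM on a log axis of 5 tissue isoforms with their common partners and of the 3 c-subunit genes over the 15 conditions, with hours on the horizontal axis and – and + for –dox and +dox. Cox6b2 with dox lies above Cox6b2 without dox at each time, Cox7a1 is highest at 0 h, Ndufa4l2 and Cox4i2 are highest at 0 h –dox, and Atp5g1 lies below Atp5g2 at 96 h and in all 8 re-seeded conditions.

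Ndufa4l2 and Cox4i2, isoforms known from low oxygen, were highest in cells re-seeded at 0 h without dox. Ndufa4l2 measured 8.39, 0.744, 4.74, 3.87, 8.36, 7.23 and 6.29 FPKM over withdrawal, 44.0, 7.81, 0.771 and 2.18 FPKM –dox and 4.59, 3.71, 0.559 and 1.96 FPKM +dox. The value of 44.0 FPKM at 0 h –dox stood above the other 14, whose highest was 8.39 FPKM at 0 h, and the log2 ratio of +dox to –dox at 0 h was -3.26. Cox4i2 measured 0.459, 0, 0.647, 0.976, 0.722, 0.859 and 2.02 FPKM, 5.61, 1.78, 0.269 and 2.18 FPKM –dox and 2.2, 1.35, 1.03 and 0.578 FPKM +dox, so most of its values lie near 1 FPKM, where ratios are unsteady. The 10 hypoxia response genes summed to 138 FPKM at 0 h before re-seeding and to 232 and 123 FPKM after re-seeding –dox and +dox, and the highest of their 15 sums was 242 FPKM at 96 h. The 19 glycolysis genes summed to 6729, 9758 and 7936 FPKM in the same 3 conditions, with the highest of their 15 sums at 0 h –dox. Both sums, like Ndufa4l2, were higher at 0 h –dox than at 0 h or 0 h +dox, while at 96 h the hypoxia sum was high and Ndufa4l2 was not. Their part in the Ndufa4l2 values was not tested.

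The 3 c-subunit genes Atp5g1, Atp5g2 and Atp5g3 encode the same mature protein of the rotating ring and differ in the presequences that guide import. Atp5g1 measured 555, 640.2, 721, 650.3, 444, 303 and 269 FPKM over withdrawal, 263, 273, 267 and 188 FPKM at 0, 24, 48 and 96 h –dox and 386, 331, 224 and 159 FPKM +dox. Its highest value was 4.52 times its lowest, the widest span of the 73 canonical subunits. Atp5g2 measured 254, 259, 289, 288, 282, 280.2 and 294 FPKM, 418, 368, 292 and 197 FPKM –dox and 427, 388, 322 and 284 FPKM +dox, with its highest values in cells re-seeded at 0 h. Atp5g3 measured 658, 733, 843, 814, 599.5, 477 and 482 FPKM, 330.3, 458, 530.0 and 558 FPKM –dox and 430.3, 461, 364 and 518 FPKM +dox. The summed level of the 3 was 1467 FPKM at 0 h and 1011 FPKM at 0 h –dox, while the share of Atp5g1 was 37.8% and 26.0% and that of Atp5g2 17.3% and 41.3%. By level the order was Atp5g3, Atp5g1 and Atp5g2 at 0 h and Atp5g2, Atp5g3 and Atp5g1 at 0 h –dox. The 3 genes share coding sequence, and how reads that match more than 1 of them were assigned is not given in the sources used here, so their separate levels are uncertain.

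Upstream sequences are shown for the c-subunit genes, which had different courses for 1 mature protein, and for the pairs Cox6b1 and Cox6b2 and Cox7a1 and Cox7a2. Each is the part of the 250 bases before the RefSeq gene start (GRCm38.p6) that overlaps no annotated exon, written 5′ to 3′ on the strand of the gene. Capitals mark CCAAT, the letters of the CCAAT box, or ATTGG, its complement on the other strand. Atp5g1 lies at chr11:96075671-96075881 (minus strand), Atp5g2 at chr15:102671128-102671297 (minus), Atp5g3 at chr2:73911327-73911576 (minus), Cox6b1 at chr7:30626152-30626364 (minus), Cox6b2 at chr7:4753095-4753225 (minus), Cox7a1 at chr7:30183921-30184143 (plus) and Cox7a2 at chr9:79759879-79760103 (minus).
Atp5g1: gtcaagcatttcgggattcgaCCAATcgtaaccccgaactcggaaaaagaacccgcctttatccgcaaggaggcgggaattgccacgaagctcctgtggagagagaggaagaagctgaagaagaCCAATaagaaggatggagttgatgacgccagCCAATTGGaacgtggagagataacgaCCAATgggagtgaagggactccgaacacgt
Atp5g2: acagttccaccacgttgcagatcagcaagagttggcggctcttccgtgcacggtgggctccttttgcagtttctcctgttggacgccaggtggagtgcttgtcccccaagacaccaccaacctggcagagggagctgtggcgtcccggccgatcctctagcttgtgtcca
Atp5g3: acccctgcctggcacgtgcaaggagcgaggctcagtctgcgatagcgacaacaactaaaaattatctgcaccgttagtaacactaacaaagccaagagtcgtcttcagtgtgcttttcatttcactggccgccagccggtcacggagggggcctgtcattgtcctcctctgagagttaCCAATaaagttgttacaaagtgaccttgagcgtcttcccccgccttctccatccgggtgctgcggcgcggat
Cox6b1: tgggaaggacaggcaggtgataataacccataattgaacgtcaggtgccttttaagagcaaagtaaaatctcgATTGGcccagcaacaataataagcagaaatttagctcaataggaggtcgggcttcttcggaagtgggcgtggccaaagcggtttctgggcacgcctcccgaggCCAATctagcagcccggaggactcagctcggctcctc
Cox6b2: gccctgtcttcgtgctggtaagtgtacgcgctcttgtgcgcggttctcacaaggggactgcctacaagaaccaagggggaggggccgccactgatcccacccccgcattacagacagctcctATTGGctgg
Cox7a1: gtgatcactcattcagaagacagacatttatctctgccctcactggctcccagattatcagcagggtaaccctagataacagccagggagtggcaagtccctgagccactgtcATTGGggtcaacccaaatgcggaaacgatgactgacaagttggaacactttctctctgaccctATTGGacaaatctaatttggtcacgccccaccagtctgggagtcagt
Cox7a2: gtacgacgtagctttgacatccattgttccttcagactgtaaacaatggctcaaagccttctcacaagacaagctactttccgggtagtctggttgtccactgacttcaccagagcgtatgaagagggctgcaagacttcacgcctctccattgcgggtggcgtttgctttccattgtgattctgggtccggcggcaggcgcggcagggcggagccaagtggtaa

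The upstream sequence of Atp5g1 holds 5 such matches, of which CCAATTGG contains an overlapping pair, that of Atp5g3 holds 1 and that of Atp5g2 0. Cox6b1 and Cox7a1 have 2 matches each, Cox6b2 has 1 and Cox7a2 has 0. The parts shown differ in length, with 211 bases for Atp5g1, 250 for Atp5g3, 170 for Atp5g2 and 131 for Cox6b2. That of Atp5g2 ends 80 bases before the gene start, so these counts do not compare equal windows. Over the full 250 bases, for the 62 of 73 canonical subunits found in the RefSeq table, CCAAT on either strand was present in 26, or 41.9%. It was present in 37.5% of 27025 genes with a promoter and in 40.9% of those with a mean of at least 1 FPKM. A gene was counted when any of its listed promoters matched. Other motifs known from promoters of respiratory genes were searched on both strands. The palindromic NRF1 motif was found in 4 of 62, or 6.45%, against 0.877% of all genes with a promoter and 1.95% of those with a mean of at least 1 FPKM. The ETS letters CCGGAAG were found in 12, or 19.4%, against 7.83% and 16.3%, and the YY1 motif, as an exact match to 11 letters, in 0 against 0.248% and 0.556%. Letters that match are a description and not a bound site, and their absence from this window says nothing of the factor. Cox6a1, the common form of complex IV subunit 6a, at chr5:115348982-115349129 (minus strand), has both the NRF1 motif and CCAAT, in capitals.
Cox6a1: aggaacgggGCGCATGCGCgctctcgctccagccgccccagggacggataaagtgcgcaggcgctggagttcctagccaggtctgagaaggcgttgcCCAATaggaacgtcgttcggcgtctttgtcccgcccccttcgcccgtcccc

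Of the 18 regulators of mitochondrial biogenesis listed, 16 had a mean of at least 1 FPKM, and they did not share 1 course. At 24 h, 12 were above and 4 below their 0 h value, at 72 h 6 and 10, and with dox at 0 h 8 and 8, where 50.1%, 48.8% and 54.5% of all genes were above. Ppargc1a, a coactivator known to drive respiratory genes in muscle and brown fat, had at most 0.287 FPKM, at 0 h, and its relative Pprc1 had 64.1, 76.9 and 40.4 FPKM after 0, 24 and 96 h. Nrf1, a factor known to bind respiratory promoters, had 45.8, 58.5 and 44.3 FPKM after 0, 36 and 72 h. Gabpa, the ETS-family factor of respiratory promoters, had 53.4, 45.7, 35.3, 33.1, 26.8, 29.1 and 18.7 FPKM from 0 to 96 h, highest at 0 h. Tfam, which packages and transcribes mitochondrial DNA, had 56.9, 81.5, 69.7, 69.0, 45.3, 39.0 and 42.8 FPKM, highest at 24 h, when the subunits dipped. Polg, the mitochondrial DNA polymerase, went from 20.9 to 60.9 FPKM between 0 and 96 h and so ran against most subunits. Esrrb, an orphan nuclear receptor of the naive state, had 149.9 FPKM before withdrawal and 3.07 FPKM after 96 h, and 8.31 and 56.2 FPKM in re-seeded cells of 48 h –dox and +dox. Its relatives Esrra and Esrrg had means of 8.74 and 0.0634 FPKM.

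Other mitochondrial lists departed from the subunits in part. Mitochondrial ribosomal proteins had median log2 ratios to 0 h of 0.25, 0.41 and -0.26 after 24, 36 and 72 h, where the 73 canonical subunits had -0.22, -0.05 and -0.62. At 36 h, 70 of the 77 mitochondrial ribosomal protein genes and 29 of the 73 subunits were above their 0 h value, as were 51.3% of all genes, whose median was 0.02. The 43 assembly factors that passed the minimum had -0.19 at 72 h and 0.18 for +dox against –dox at 0 h. The 17 TCA cycle genes had -0.07 and 0.24. With conditions rescaled to 1 sum the medians at 72 h were 0.12 for mitochondrial ribosomal proteins, 0.19 for assembly factors and 0.31 for the TCA cycle, all still below the 0.36 of all genes on that scale. The median of assembly factors with dox at 0 h was then -0.045, above the -0.18 of all genes. At 72 h, as deposited, 5 of the 17 TCA cycle genes and 8 of the 43 assembly factors were 1.5-fold lower. The first share lies above and the second below the 22.7% of all genes. Within the TCA cycle Idh2, the mitochondrial NADP-dependent isocitrate dehydrogenase, had 144, 70.3 and 45.8 FPKM after 0, 24 and 48 h, and Mdh2, malate dehydrogenase, 250.1, 344 and 370.0 FPKM. Glycolysis genes had the opposite sign to the subunits at 0 h, with a median of 0.51 for –dox against 0 h and -0.51 for +dox against –dox, and rescaling turned neither.

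**Figure D5:**
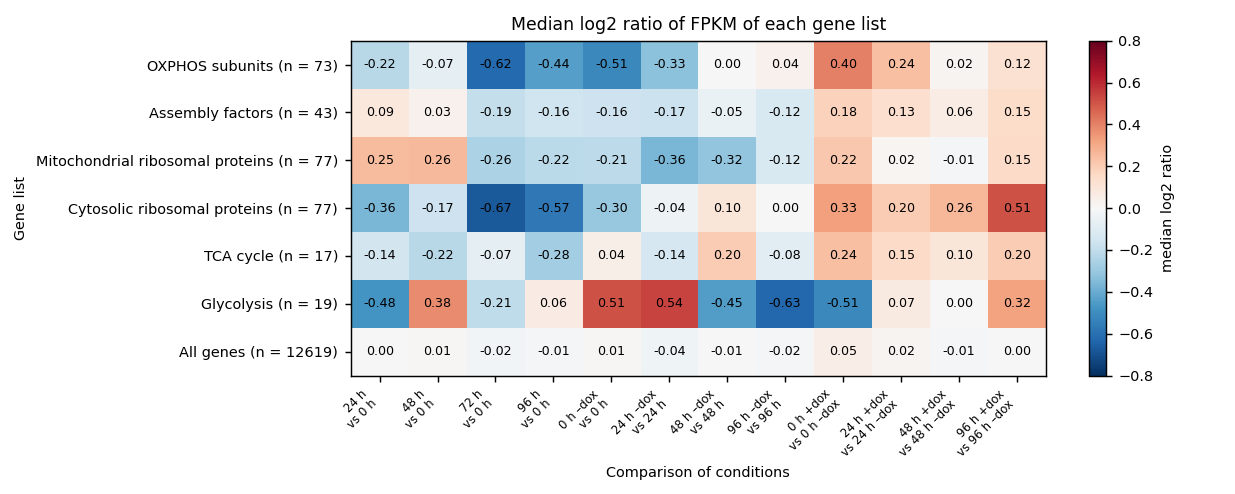
Median log2 ratio of FPKM of 6 gene lists and of all genes in 12 comparisons, with the list and its number of genes on the vertical axis and the comparison on the horizontal axis. The 73 OXPHOS (oxidative phosphorylation) subunits share the sign of the cytosolic ribosomal proteins in the withdrawal and dox comparisons on the deposited scale, while glycolysis has the opposite sign at 0 h –dox against 0 h and at 0 h +dox against –dox.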

How the data were processed

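RNA-seq of polyadenylated RNA was analysed from 30 samples in 15 conditions, 2 replicates each, grouped by GEO's labels. As its methods state, the study used TopHat 2.0.14 to align reads to mm10. Cuffquant (Cufflinks 2.2.1) was run on the Gencode M4 annotation, limited to 6 biotypes and to lengths of 200 bp or more, and Cuffdiff merged the replicates. The deposited values are FPKM, 1 per gene and condition. The library normalization and the handling of reads shared by paralogs and processed pseudogenes are not given in the sources used here. The table's columns of the authors' own calls (dynamic gene groups and dox response) were not used. All value columns carried conditions of this study. Sequenced fragments reached up to 600 bp, so values of short transcripts can depend on fragment sizing.

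Values were used as deposited, and 4 rows with symbols listed more than once were left out. Genes with a mean of at least 1 FPKM over the conditions (12619) were compared in 17 pairs of conditions. A gene was counted when the ratio was at least 2 (or 1.5) and the higher value at least 1 FPKM. No test, interval or depth could be computed without counts or replicate values. Genes named were the isoforms and their partners, the c-subunit genes, the most abundant and the extreme members of each complex at 96 h, the 3 highest and lowest ratios in the main comparisons, members with a mean under 1 FPKM, and the biogenesis regulators. Atp5h, Atp5j2, Atp5f1, Ndufs7, Sdhc, Cox6a1, Cyc1, Pprc1, Idh2, Mdh2 and members named in counts of 13 or fewer were chosen after their values were seen. The members and lists were chosen with earlier results of these data known. Gene lengths came from Gencode M21, in which 82 of 84 members had 1 gene, and promoters from RefSeq (GRCm38.p6), which held 69 of 84. Scripts used pandas 2.3.3 and numpy 2.4.6 with matplotlib 3.10.9 and scipy 1.17.1 under Python 3.11.15, and the counting steps were tested on simulated data. Alternatives covered the added constant, scaling, minimum expression, fold limit, membership, transcript length and reference time.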

Additional observations from a re-analysis of the deposited data

Results flagged for a closer look

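For 3 isoforms the same contrast ran in opposite directions from different starting times. The differences between times were not tested, since each condition has 1 combined value. For Cox7a1, re-seeding without dox gave a log2 ratio of -1.13 at 0 h and 1.11 at 96 h. For Ndufa4l2 the same contrast gave 2.39 at 0 h and 3.39 at 24 h but -2.33 at 48 h and -1.53 at 96 h. The ratios at 24 and 48 h rest on values under 1 FPKM, 0.744 at 24 h and 0.771 at 48 h –dox, where ratios are unsteady. For Cox4i2, +dox against –dox gave -1.35 at 0 h, 1.93 at 48 h and -1.92 at 96 h, with values between 0.269 and 5.61 FPKM in these conditions.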

How the results depend on the processing

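No paired analysis was possible because the table holds 1 value per condition, and for the same reason no replicate could be left out. Adding 1 FPKM, scaling by median ratios, a minimum mean of 10 FPKM and canonical subunits only each moved all 17 medians of the members by less than 0.1 on the log2 scale. Scaling each condition to the same sum moved 10 of 17 medians. They became -0.12, -0.039, -0.22 and -0.16 after 24, 60, 72 and 96 h against 0 h, -0.23 for 0 h –dox against 0 h, -0.18 for 24 h –dox against 24 h, 0.16, 0.13 and -0.057 for dox at 0, 24 and 96 h, and 0.086 for 48 h –dox against 0 h –dox. Over the comparisons this scaling moved the median of all genes by between -0.23 and 0.38, since it shifts every gene alike. It changed the 2-fold counts of either direction from 3 to 5 at 48 h and from 14 to 5 at 72 h. For 0 h –dox against 0 h it changed the count from 11 to 5. Each 5 is 6.17%, against 25.3%, 30.1% and 20.7% of all genes, which were 24.7%, 26.8% and 18.1% as deposited. Smaller moves were 4 to 3 at 60 h, 10 to 7 at 96 h and 3 to 2 for dox at 96 h. Re-seeding at 48 and 96 h went from 4 to 5 and 2 to 3. For 48 and 96 h –dox against 0 h –dox the moves were 10 to 7 and 9 to 8. In each of these the members' share lay below that of all genes on both scales. Only members of at least 800 bases gave -0.22 for 24 h –dox against 24 h.

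A 1.5-fold limit counted 13, 9, 11, 17, 42 and 27 members from 24 to 96 h against 0 h, and 35, 22, 15 and 4 for re-seeding at 0, 24, 48 and 96 h. It counted 19, 4, 3 and 4 for dox at 0, 24, 48 and 96 h, and 9, 30 and 25 for 24, 48 and 96 h –dox against 0 h –dox. In the same order the shares of all genes that passed this limit were 36.5%, 42.9%, 42.9%, 42.1%, 44.9% and 46.9%, then 36.9%, 41.7%, 44.1% and 39.1%. They were 21.6%, 15.4%, 24.4% and 29.6% for dox, and last 34.0%, 49.4% and 58.7%. The members' shares were above these for 72 h (51.9%), 0 h –dox against 0 h (43.2%) and dox at 0 h (23.5%), and below them for the others listed. With conditions rescaled to 1 sum the members' shares for these 3 were 21%, 30.9% and 12.3%, below the 50.7%, 40.7% and 25.3% of all genes. With 24 h in place of 0 h as the reference, chosen after seeing the data because of the fibroblast genes at 0 h, the medians were 0.15, 0.094, -0.060, -0.37 and -0.21 at 36, 48, 60, 72 and 96 h. The 2-fold counts at these times were 1, 1, 2, 8 and 8. Of these, 0, 0, 0, 6 and 5 members were lower, where 4.61%, 6.32%, 9.34%, 11.4% and 14.5% of all genes were. No share of all genes is given for the remaining members, which were higher. The lower level at 72 and 96 h kept its direction and the level at 36 and 48 h did not. No count or replicate was available to set what depth limits, which matters most for Cox4i2, Cox6a2, Cox8b and Cox8c near 1 FPKM. It also matters for Ndufa4l2 and Cox7b2 in the conditions where they lay under 1 FPKM.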

Other observations

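Genes of the complexes that the name rule leaves out gave further values. Ndufab1, the acyl carrier protein of complex I, measured 571, 491, 607, 567, 532, 360.2 and 484 FPKM from 0 to 96 h, and 278 and 454 FPKM in re-seeded cells of 0 h –dox and +dox. Usmg5, a small membrane subunit of ATP synthase, measured 652 FPKM at 0 h before re-seeding and 283 and 489 FPKM after re-seeding –dox and +dox, with a log2 ratio of -1.21 for re-seeding at 0 h. Cyct, the testis form of cytochrome c, measured 18.5, 20.8, 27.7, 38.7, 40.3, 31.6 and 18.9 FPKM over withdrawal and 3.71 FPKM at 96 h –dox, and the somatic form Cycs measured 33.9, 36.8, 43.0, 53.1, 42.5, 32.0 and 33.5 FPKM over withdrawal. Atpif1, the inhibitor of ATP synthase, had 682, 921 and 524 FPKM after 0, 48 and 72 h. Among glucose transporters, Slc2a3 measured 338, 47.9, 24.9, 27.7, 199, 404 and 889.5 FPKM, lowest at 36 h, and Slc2a1 measured 33.5, 46.0, 103, 111, 143, 181 and 160.2 FPKM, lowest at 0 h. These genes were chosen after their values were seen.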
